A study of Homo sapiens with 2 samples.

Results

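The small heat shock protein family was represented by 9 of the 17240 genes that could be named on the array (CRYAB, CRYAA, HSPB1, HSPB2, HSPB3, HSPB6, HSPB7, HSPB8 and HSPB11). Their probes were found by matching the RefSeq accession of each probe to these symbols, which gave 12 of the 41000 probes on the array, and 10 of these 12 were among the 36060 probes bright enough to be kept. HSPB1 had 3 probes, CRYAA had 2 probes and each of the other 7 genes had 1 probe, every probe as a single spot. CRYAA kept 1 of its probes, HSPB7 kept none, and so 8 of the 9 genes are represented among the kept probes.

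The arrays compared SKOV3, an established line of human ovarian adenocarcinoma cells, with and without suppression of RUNX2, a transcription factor best known for bone development. The cells labelled cl-sh3 are 1 clone that stably carries a short hairpin RNA against RUNX2 in the lentiviral vector pLKO.1-puro. The control is a clone that received the same vector with a scramble sequence, and both clones were selected with puromycin. Total RNA of both was labelled with cyanine dyes and co-hybridized to 2 two-colour genome-wide Agilent arrays, with cl-sh3 in Cy5 and the control in Cy3 on the first (hybridization 1), and the dyes reversed on the second (hybridization 2). The same RNA pair was used on both arrays, which makes them 1 replicate. The difference between the hybridizations therefore shows technical error only, the clones cannot be compared by a test, and an effect of RUNX2 suppression and a difference between 2 clones of any other origin cannot be told apart.

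The main ratio of a probe is the log2 of cl-sh3 over control after background correction and loess normalization, so that a value of 1 stands for a level 2-fold higher in cl-sh3. A probe was called where both hybridizations put it past 2-fold in the same direction. Each array had 43376 probe spots, of which 91.4% and 93.9% were well above background in Cy3 and 88.7% and 77.3% in Cy5 (hybridizations 1 and 2). Median spot signals were 451 and 507.5 in Cy3, and 902.5 and 684 in Cy5, and 0 spots were saturated. Over all kept probes the median difference between the hybridizations was 0.22 on the log2 scale, and its 95th percentile was 0.63. For RUNX2 itself the brightest probe was lower in cl-sh3 in both hybridizations (log2 ratios -2.04 and -1.30), whereas its 2 dimmer probes read 0.17 and -0.13, and -0.29 and -0.17. The first of these 2 is for the same RefSeq transcript as the brightest probe. Of the epithelial and ovarian carcinoma markers, 10 of 10 had a kept probe. By the brightest kept probe of each, 0 were called, with means from -0.66 to 0.83 and a median of 0.40.

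Small heat shock proteins are compact chaperones built around a shared alpha-crystallin domain, which bind unfolding proteins and hold them until ATP-dependent chaperones such as HSP70 refold them. CRYAA and CRYAB are the alpha-crystallins of the eye lens; CRYAB is also abundant in heart and muscle and counteracts caspase activation. HSPB1 (also called HSP27) is found in most tissues and protects the actin cytoskeleton, while HSPB2, HSPB3, HSPB6 and HSPB7 are best known in muscle. HSPB11 carries a family number but is a subunit of intraflagellar transport, the movement of cargo along cilia, and its current RefSeq symbol is IFT25.

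Many genes of the family are induced by heat shock factors, which bind inverted repeats of GAA in their promoters. The upstream sequences of the 3 genes below are shown because they hold such a repeat within 250 bases of the transcript start, and capitals mark each match to the core GAANNTTC or TTCNNGAA. The sequences are those of RefSeq on GRCh38.p14, written 5′ to 3′ on the strand of the gene. The HSPB1 window is chr7:76302423-76302672 on the plus strand, the HSPB8 window chr12:119178681-119178930 on the plus strand, and the HSPB6 window chr19:35757030-35757279 on the minus strand.
HSPB1: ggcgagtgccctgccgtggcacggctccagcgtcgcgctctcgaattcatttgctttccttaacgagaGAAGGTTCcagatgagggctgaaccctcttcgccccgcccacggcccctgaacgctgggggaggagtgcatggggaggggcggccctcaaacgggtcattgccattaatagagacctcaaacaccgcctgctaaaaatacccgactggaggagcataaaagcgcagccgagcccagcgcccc
HSPB8: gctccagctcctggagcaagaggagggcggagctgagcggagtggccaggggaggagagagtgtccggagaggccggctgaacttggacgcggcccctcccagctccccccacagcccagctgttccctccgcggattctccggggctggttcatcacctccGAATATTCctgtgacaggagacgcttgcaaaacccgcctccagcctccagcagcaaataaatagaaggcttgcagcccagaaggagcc
HSPB6: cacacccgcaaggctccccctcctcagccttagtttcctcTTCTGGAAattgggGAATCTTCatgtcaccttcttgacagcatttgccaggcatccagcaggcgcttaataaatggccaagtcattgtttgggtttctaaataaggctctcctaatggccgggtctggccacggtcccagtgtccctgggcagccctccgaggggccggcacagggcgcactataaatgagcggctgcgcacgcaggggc
The core began 182 bases before the start in HSPB1 (GAAGGTTC) and 88 bases before it in HSPB8 (GAATATTC), and HSPB6 held 2 cores, at 210 bases (TTCTGGAA) and 196 bases (GAATCTTC). The HSPB3 window (chr5:54455449-54455698, plus strand) held TTCTTGAA at 242 bases. The 9 upstream windows searched belong to 7 member genes, with 2 windows each for CRYAA and HSPB11, and CRYAB and HSPB2 are not among these genes. Of the 9 windows 4 held the core, and those of CRYAA, HSPB7 and HSPB11 held none. Among all 35116 RefSeq promoters in the table, 11.6% held it in the same length. The core site of RUNX factors, searched as TGTGGT or TGCGGT on both strands, was in 0 of these 9 windows, none of which is of CRYAB or HSPB2, and in 16.3% of all promoters. A match, or its absence, describes these letters in this window only.

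CRYAB was the member with the highest ratio by a wide margin. Its probe (A_24_P206776, for NM_001885 on chromosome 11) read log2 ratios of 2.00 and 1.44, a mean of 1.72 ± 0.40 (SD over the 2 hybridizations of 1 replicate), which is a 3.29-fold higher level in cl-sh3 (2.71-fold on the second array alone). In hybridization 1 the spot signal was 9016 for cl-sh3 over a local background of 165, and 1279.5 for the control over 46.5. In hybridization 2 it was 5307 for cl-sh3 over a background of 47, and 2215 for the control over 174. Both RNAs were thus well above background on both arrays, and cl-sh3 was the brighter RNA whichever dye it carried. The ratios of the arrays differed by 0.56, more than the median difference of all kept probes and less than its 95th percentile.

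Of the 10 kept member probes, 1 was called higher (CRYAB) and 0 were called lower. Over all kept probes 44 were called higher, which is 0.122%, and 142 were called lower, which is 0.394%. Only 6 kept probes had a higher mean ratio than CRYAB, and 8 had a higher value for the smaller of their 2 ratios. The ratio of CRYAB lay between 1.44 and 2.00 under the 9 other ways of processing that were tried, the single hybridizations included. The kept, named probes of other genes with the most similar pair of ratios, by Euclidean distance over the 2 hybridizations, belonged to DLST, a subunit of the 2-oxoglutarate dehydrogenase complex (1.87 and 1.64, distance 0.24), DEFB1, an epithelial defensin (1.65 and 1.61, distance 0.40), and EZR, which links actin to the plasma membrane (1.63 and 1.28, distance 0.41, from the dimmer probe A_24_P290481). With 2 values per gene this likeness describes these arrays alone.

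**Figure D1:**
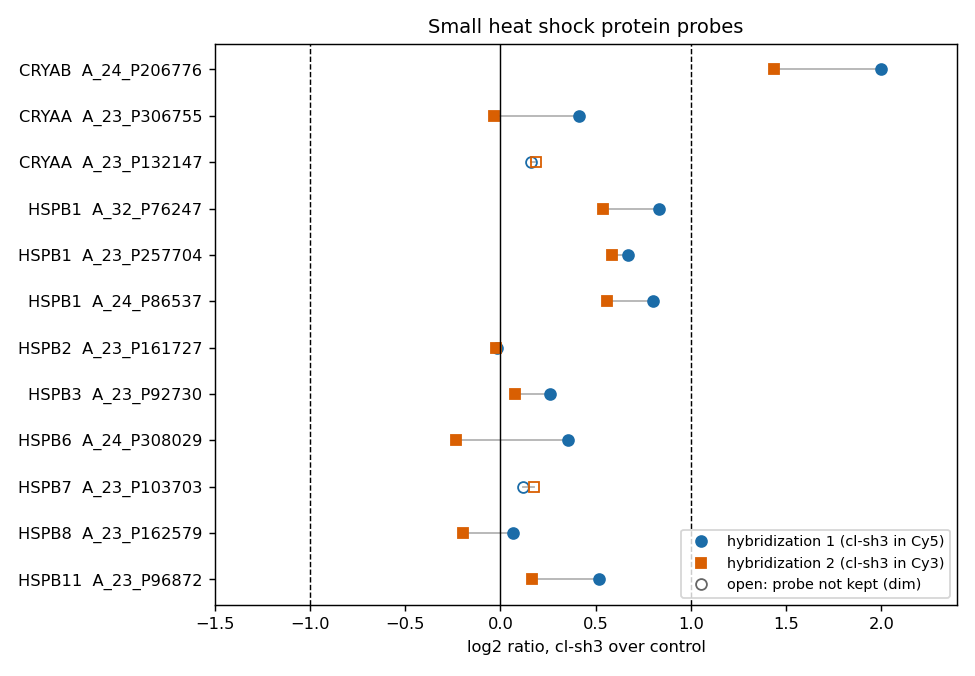
Log2 ratio of cl-sh3 over control (x axis) for each of the 12 small heat shock protein probes (rows, with gene and probe), in hybridization 1 (circles) and hybridization 2 (squares), joined by a grey line; open symbols are the 2 probes too dim to be kept, and dashed lines mark 2-fold. CRYAB lies beyond the 2-fold line in both hybridizations (2.00 and 1.44), the HSPB1 probes lie between 0.54 and 0.83, and the other symbols lie between -0.24 and 0.52.

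HSPB1 was the brightest member and stood next to CRYAB in its ratio, on every one of its 3 probes (all for NM_001540, chromosome 7). Probe A_23_P257704 read 0.67 and 0.58, a mean of 0.63 ± 0.06 (SD), or 1.55-fold. Probe A_24_P86537 read 0.80 and 0.56, a mean of 0.68 ± 0.17, or 1.60-fold. Probe A_32_P76247 read 0.83 and 0.54, a mean of 0.68 ± 0.21, or 1.61-fold. All 6 ratios were above 0 and below the 2-fold line, so HSPB1 was not called. Between the probes the ratios were close: their mean was 0.77 ± 0.09 (SD over 3 probes) in hybridization 1 and 0.56 ± 0.02 in hybridization 2. The 3 probes read the same transcript and are not replicates of the clones.

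The signals behind these ratios were high. On A_32_P76247 the signal was 153824 for cl-sh3 and 38945.3 for the control in hybridization 1, and 81927.4 and 60917.9 in hybridization 2. On A_23_P257704 it was 123691 and 35618.6, then 87312.9 and 62826.9, and on A_24_P86537 it was 81141.2 and 22456.9, then 50935.6 and 36869.7. The scanner software took all of these from a second scan at lower gain and scaled them up, in both dyes and on both arrays. The same held for 1283 kept probes (3.56%), whose median ratios were 0.01 and -0.01 and whose means had quartiles of -0.23 and 0.19. Loess centres probes of like intensity near 0, so a median near 0 among these bright probes was largely set by it. The part of the low-gain scan in the ratios of HSPB1 was not tested. Of the 1283, 42 had a mean at or above the lowest HSPB1 mean, the 3 HSPB1 probes included. Over all 36060 kept probes, 669 had a mean above it. Among the 1283, 1 was called higher and 8 lower, against 44 and 142 of all kept probes. With each array centred on its median in place of loess, HSPB1 read 1.05 to 1.24 in hybridization 1 and 0.54 to 0.59 in hybridization 2, but there the median of all the low-gain probes was itself 0.36 and -0.01. No probe of HSPB1 reached 2-fold on both arrays under that setting either.

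**Figure D2:**
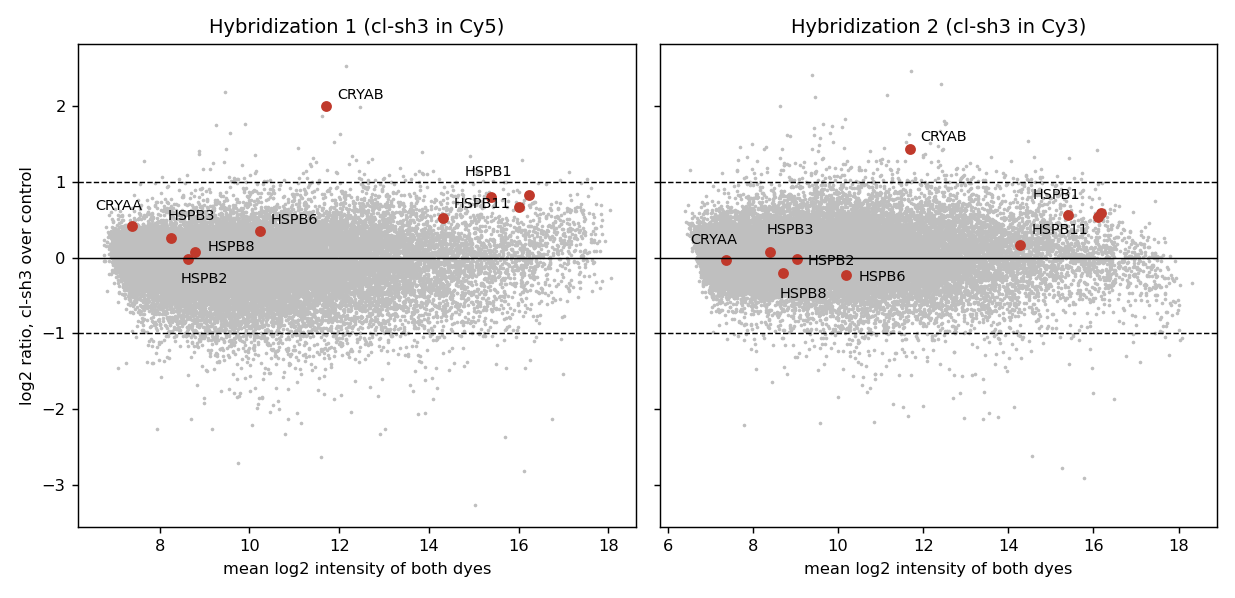
Log2 ratio of cl-sh3 over control (y axis) against the mean log2 intensity of both dyes (x axis) for the 36060 kept probes (grey) and the 10 kept small heat shock protein probes (red, named by gene), in hybridization 1 on the left and hybridization 2 on the right; dashed lines mark 2-fold. CRYAB sits above the line in both panels at a middle intensity, HSPB1 sits below it at the bright end, and the other members sit between -0.24 and 0.52.

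The muscle members HSPB3, HSPB6 and HSPB7 were not called, and HSPB3 and HSPB7 were dim, while the signals of HSPB6 were above the array medians in both dyes. HSPB6, which is phosphorylated in relaxing smooth muscle (A_24_P308029, NM_144617, chromosome 19), read 0.35 and then -0.24, a mean of 0.06 ± 0.42 (SD). Its signal was 1994 for cl-sh3 and 808 for the control in hybridization 1, and 1053 and 1468 in hybridization 2. Its sign turned with the dyes, and its difference of 0.59 between arrays was the largest among the member probes. HSPB3, a partner of HSPB2 in muscle (A_23_P92730, NM_006308, chromosome 5), read 0.26 and 0.08, a mean of 0.17 ± 0.13. Its signal was 617 and 229, then 349 and 531, for cl-sh3 and control. HSPB7, a heart member (A_23_P103703, NM_014424, chromosome 1), was not kept, since cl-sh3 was well above background only in hybridization 2 and the control only in hybridization 1. Its ratios were 0.12 and 0.18 on signals of 303 and 115.5, then 146 and 302.5, over local backgrounds of 162 and 52, then 42 and 177.

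HSPB8 works with the co-chaperone BAG3 to send misfolded proteins to autophagy. Its probe (A_23_P162579, NM_014365, chromosome 12) read 0.07 and -0.20, a mean of -0.06 ± 0.19 (SD), on signals of 738 for cl-sh3 and 339.5 for the control, then 393 and 614. BAG3 itself read 0.02 and 0.21. HSPB8 was thus within 0.20 of 0 on both arrays, with signs that turned with the dyes.

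CRYAA, the partner of CRYAB in the lens, was near the limit of detection. Its kept probe (A_23_P306755, NM_000394, chromosome 21) read 0.41 and -0.03, a mean of 0.19 ± 0.31 (SD), on signals of 388.5 for cl-sh3 and 128.5 for the control, then 169 and 363, and the control was well above background on 1 of the 2 arrays. Its second probe (A_23_P132147) was not well above background in either RNA on either array, with signals of 241 and 79, then 87 and 216, and read 0.16 and 0.18. The ratios of this second probe changed sign with the processing, between -0.05 and 0.53, and are a statement about background. By the brightest kept probe of each gene, 0 markers of other cell types were called, with means from -0.30 to 0.33. MYH6, a muscle marker, read 0.28 and 0.38 on that probe. The paper lists it as upregulated, and its other kept probe was not counted here. These markers also carried the flag for signal well above background in places. A kept probe was found for 5 of 5 lens, 7 of 9 muscle, 3 of 5 fibroblast and 4 of 4 leukocyte markers. DES and CKM, defining genes of muscle, had none. A kept probe of a dim member is therefore no evidence by itself that the gene was expressed in these cells.

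HSPB11 (IFT25; A_23_P96872, NM_016126, chromosome 1) was bright and read 0.52 and 0.16, a mean of 0.34 ± 0.25 (SD), or 1.27-fold. Its signal was 33726.4 for cl-sh3 and 12411 for the control in hybridization 1, and 20749.5 and 19402 in hybridization 2. Both ratios were above 0, and both fell short of 2-fold. The signal of cl-sh3 came from the low-gain scan on both arrays and that of the control on neither, and the part of that in the ratio was not tested.

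Over the 10 kept member probes, 6 were above 0 in both hybridizations (HSPB1 with its 3 probes, CRYAB, HSPB3 and HSPB11), 1 was below 0 in both (HSPB2), and 3 were of mixed sign (CRYAA, HSPB6 and HSPB8). Of all kept probes 29.8% were above 0 in both and 27.3% below. The median mean ratio was 0.27 over the member probes (0.47 in hybridization 1 and 0.12 in hybridization 2) and 0.01 over all kept probes. This median rests on CRYAB and HSPB1: over the 6 probes of the other 6 genes it was 0.11, with a range from -0.06 to 0.34. Of the further genes numbered within the family, HSPB9, found in testis, read 0.39 and 0.18, and ODF1, a sperm tail protein, had no kept probe.

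CRYAB and HSPB2 lie next to each other on chromosome 11. HSPB2 (A_23_P161727, NM_001541), which binds the kinase DMPK in muscle, read -0.02 in both hybridizations, on signals of 684.5 for cl-sh3 and 308 for the control, then 515 and 751, over local backgrounds of 181 and 40, then 44 and 215. Both RNAs were well above background on both arrays. Other settings moved its mean between -0.04 and 0.12. The gene beside CRYAB was thus close to equal levels in both clones, while CRYAB was more than 2-fold higher on each array alone.

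The other neighbours were also not called. In the order of the RefSeq table, the 8 nearest genes with a kept probe on each side gave 0 called higher and 0 called lower of 16, with means from -0.68 to 0.62 and a median of 0.01. Over all kept probes 0.122% were called higher and 0.394% lower. At such shares 0 calls is the likely outcome for 16 genes, and for each gene list below. HSPB2 and C11orf52 (-0.01 and 0.11) lie within the span that this table gives to CRYAB, while CFAP68 (mean 0.19) and FDXACB1 (mean 0.05) are the nearest on the other side. The largest mean values were farther out and of opposite sign: TIMM8B, a chaperone of mitochondrial protein import, read 0.42 and 0.83, and SDHD next to it, a subunit of succinate dehydrogenase, read -0.67 and -0.69.

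**Figure D3:**
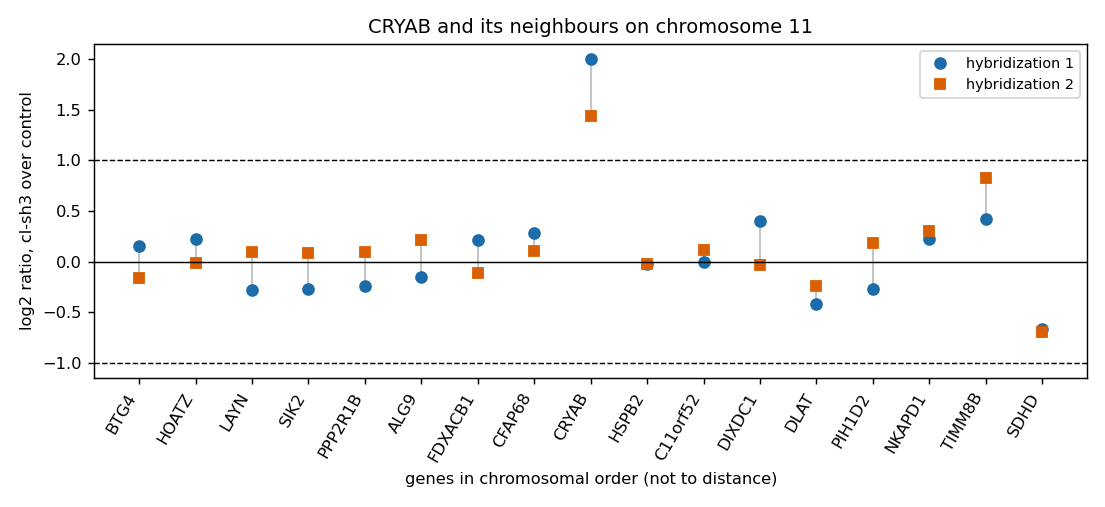
Log2 ratio of cl-sh3 over control (y axis) for CRYAB and the 8 nearest genes with a kept probe on each side, in chromosomal order along the x axis (not to distance), in hybridization 1 (circles) and hybridization 2 (squares); dashed lines mark 2-fold. CRYAB alone lies beyond a dashed line in both hybridizations, HSPB2 beside it reads -0.02 on both, and SDHD and TIMM8B at the right end read -0.68 and 0.62 on average.

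Genes that share the heat shock response with the family were compared as a list of 24 chaperones and co-chaperones, each gene by its brightest probe. Of the 23 with a kept probe, 0 were called in either direction, 10 were above 0 in both hybridizations and 5 below, and the median was 0.03 (-0.05 and 0.19 on the separate arrays). The highest were HSPA1A, the heat-inducible HSP70, at 1.34 and 0.78, and HSPE1, the mitochondrial co-chaperonin, at 0.70 and 0.69. The other 2 HSPA1A probes read 1.14 and 0.74, and 0.89 and 0.85, and since HSPA1A and HSPA1B are nearly identical the arrays may not tell them apart. The mean of HSPA1A on its brightest probe was 1.06, past 2-fold, as was hybridization 1 alone, so that it was short of a call only because hybridization 2 read 0.78. Under the 7 alternative ways of computing the ratio its mean lay between 1.02 and 1.21, and in none of them were both hybridizations past 2-fold. The lowest were DNAJB4, an HSP40 co-chaperone, at -0.64 and -0.06, and PTGES3, the HSP90 co-chaperone p23, at -0.80 and -0.24 on its brightest probe. Its 3 dimmer probes were called lower (-1.28 and -1.18, -1.71 and -1.25, -1.26 and -1.32), so its probes disagree on the size of the difference. HSPA6, which is nearly silent without stress in most cells, read -0.08 and -0.04, with the control well above background on only 1 of the 2 arrays. DNAJB1, a partner of HSP70, read 0.36 and 0.34.

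The heat shock factors gave 0 calls among 7 kept genes of 9 listed, with 4 above 0 and 2 below 0 in both hybridizations and a median of 0.05. HSF1, the main factor of the heat shock response, read -0.12 and -0.10, and HSF4, the factor of the lens, 0.09 and 0.19. The lowest was HSF2, at -0.63 and -0.27, and the highest was HSBP1, a protein that binds HSF1, at 0.38 and 0.45. By the mean of its brightest probe, no gene of this list was as far from 0 as HSPB1.

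Binding partners and kinases of the family were a list of 17 genes, of which 15 had a kept probe, 0 were called, 6 were above 0 and 5 below 0 in both hybridizations, and the median was 0.04. The highest were CTNNB1 (beta-catenin), at 0.71 and 0.67, and CDH16, a kidney cadherin that binds CRYAB, at 0.18 and 0.76. The lowest were FBXO4, the F-box protein that CRYAB recruits to ubiquitinate its targets, at -1.02 and -0.94, and VIM, an intermediate filament protein that CRYAB binds, at -0.31 and -1.29. FBXO4 missed the 2-fold rule on 1 array. Its second probe read -1.31 and -0.82, a mean of -1.06. That probe was past 2-fold lower on both arrays under 2 of the 7 alternative ways of computing the ratio. In the other direction, the dimmer probe of SYNPO2 (0.28 and 0.64) was past 2-fold higher on both arrays under 2 of the 7. VIM was past 2-fold on 1 array only, and its second probe read 0.08 and -0.87. STUB1, a ubiquitin ligase that works with HSP70, read 0.08 and 0.07.

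The crystallins and lens genes outside the family were 19, of which 16 had a kept probe, 0 were called, 4 were above 0 and 3 below 0 in both hybridizations, and the median was 0.03. The highest were CRYBB1 (0.33 and 0.34) and CRYGN (0.29 and 0.37), a beta- and a gamma-crystallin whose control signal was well above background on 1 of the 2 arrays. The lowest were CRYZ, a quinone reductase, at -0.79 and -0.14, and CRYL1, a metabolic enzyme, at -0.53 and 0.03. The second CRYZ probe had a mean of -1.12 and was past 2-fold lower on both arrays under 1 of the 7 alternative ways. The means of all 16 lay below that of HSPB1.

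HSPB11 also differed in sign from most genes of the complex it belongs to. Of the 16 other subunits of intraflagellar transport complex B, 16 had a kept probe, 0 were called, 2 were above 0 and 11 below 0 in both hybridizations, and the median was -0.37 (-0.54 and -0.20). Over all kept probes, 29.8% were above 0 and 27.3% below 0 in both hybridizations. The lowest were IFT81, at -1.48 and -0.56, and IFT88, at -1.25 and -0.74. The highest were IFT80, at 0.14 and 0.26 on its brightest probe (its 2 dimmer probes had means of -0.49 and -0.28), and IFT57, at 0.05 and 0.12. IFT27, which pairs directly with HSPB11, read 0.01 and -0.20. No test of the difference between HSPB11 and these subunits can be made from 1 replicate.

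**Figure D4:**
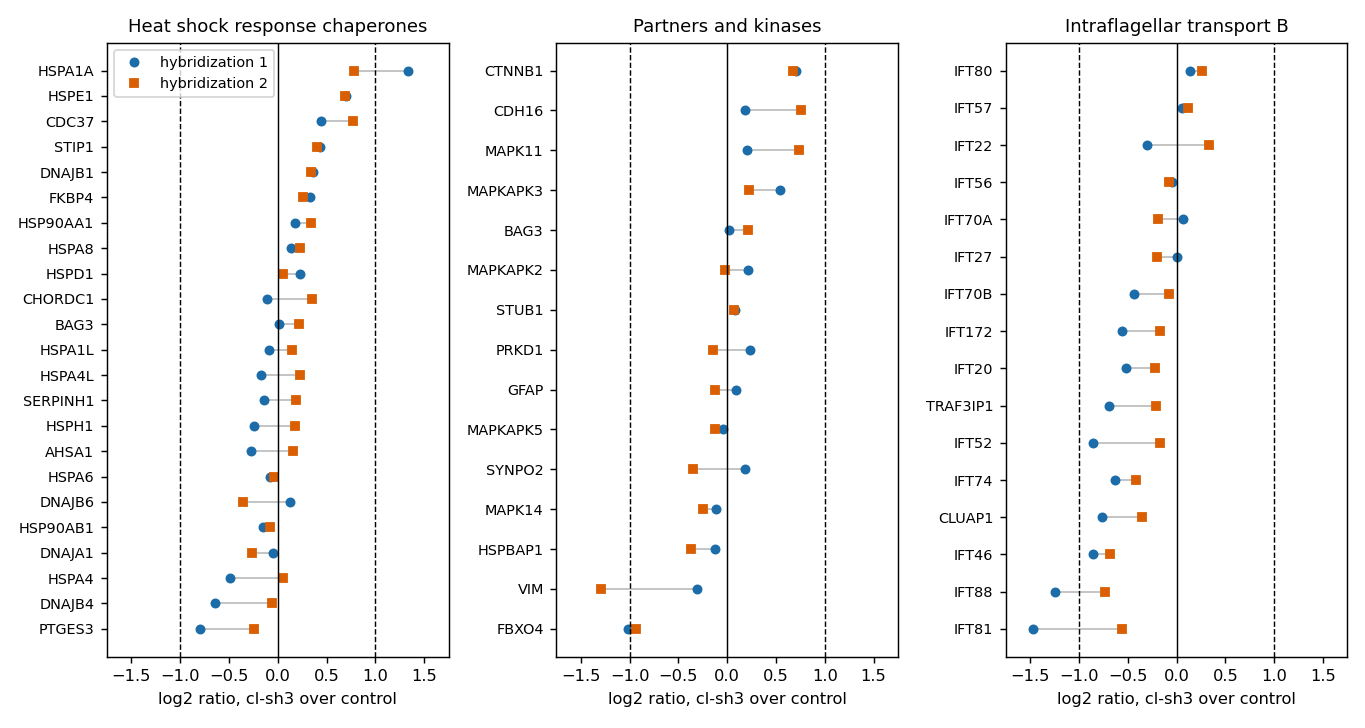
Log2 ratio of cl-sh3 over control (x axis) for the brightest probe of each gene (rows, ordered by mean) in 3 related lists, heat shock response chaperones on the left, partners and kinases of small heat shock proteins in the middle and intraflagellar transport B genes on the right, in hybridization 1 (circles) and hybridization 2 (squares); dashed lines mark 2-fold. No gene is past 2-fold in both hybridizations, and the medians of the lists are 0.03, 0.04 and -0.37.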

How the data were processed

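Total RNA of 2 SKOV3 clones was measured on 2 two-colour arrays as described above. The authors deposited the intensity of each spot, not normalized, with local backgrounds and flags, as read by Feature Extraction 10.5.1.1 per the file headers (8.5.1.1 in the submitters' processing notes). They also deposited log10 ratios of Cy5 over Cy3 computed by that software, which carry its own dye normalization and were used only as alternatives, as was the deposited value table of log10 ratios, equal to them within 0.00245 and 0.005 (medians 0.0108 and 0). The earlier article that the study cites for data extraction was not used here.

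The intensities were corrected with normexp (offset 50) in limma 3.58.1 (R 4.3.3). Flagged spots (153 and 144) and controls were then dropped and loess was fitted within each array. The sign was set so that a positive log2 ratio means a higher level in cl-sh3. Probes stayed in where either RNA exceeded its background clearly on both arrays, which held for 36065 probes (88%), and 36060 of these had a ratio on both. Up to 1.96% of negative control spots per channel carried that flag. The 2-fold rule in both hybridizations follows the study. Precision is limited by the number of arrays, and SDs show technical error only. RUNX2 and the members were read from every probe with their accession.

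Of 19228 RefSeq accessions, 18023 were matched to 1 symbol in a RefSeq table of GRCh38.p14. The brightest RUNX2 probe, and the dimmer probe for the same RefSeq transcript, were named through a supplementary list of the study. No probe positions are printed, the array annotation being of an older build. The members and gene lists were chosen with earlier results of these data known. Named genes are the members, RUNX2, list members that met the 2-fold rule or had the 2 highest and 2 lowest means, the neighbours of CRYAB, and the 3 nearest probes in pattern. Other list genes (BAG3, HSF1, HSF4, HSPA6, DNAJB1, STUB1, IFT27) were named for their roles after their values were seen. SYNPO2 was named for the values of its dimmer probe. On simulated data of 41000 probes for cl-sh3 over control, 100 of 100 probes changed by 1.5 and 100 of 100 changed by 2.5 on the log2 scale were recovered, with 0 unchanged probes called. The changes were placed in brighter probes only, and the noise was a set value, not measured on these arrays. Recovery of changes in dim probes was therefore not tested. Alternatives changed the background correction (offset 0, or none), the normalization (median centring, Aquantile), the flagged spots (kept), the filter (none, or both RNAs), the source of the ratio (software, value table), the arrays (each alone) and the 2-fold rule (on the mean). Python 3.11.15, numpy 2.4.6, pandas 2.3.3 and matplotlib 3.10.9 were used.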

Additional observations from a re-analysis of the deposited data

How the results depend on the processing

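Among the small heat shock protein probes, the count called higher stayed at 1 and the count called lower at 0 under all 12 alternatives, and the median of the kept member probes lay between 0.12 and 0.47. Over all kept probes the 44 called higher became 77 with median centring, 103 with the software's ratios and with the value table, 93 with the mean of both hybridizations in the 2-fold rule, and 88 to 219 from a single hybridization. The 142 called lower became 253, 251 and 250 with the software's ratios, the value table and the mean rule, and 196 to 506 from a single hybridization. The share of lower calls was 76.3%, against 61.7% with median centring and 71.1% with the software's ratios. Among the member probes HSPB1 A_23_P257704 moved from 0.63 to 0.82 with median centring, and the dim probes of CRYAA (A_23_P132147), HSPB2 and HSPB7 moved by more than their SD between arrays under 5 alternatives each. In a single hybridization HSPB6 read between -0.24 and 0.35 and HSPB8 between -0.20 and 0.07, so no direction is given for either. Of 185 alternative values, which include counts and medians of lists, 157 were rated the same, 28 moved and 0 reversed. Rated the same were some changed counts, such as 61 and 194 in place of 44 and 142 with offset 0. Among the 28 were means near 0 that changed sign, such as HSPB7 from 0.15 to -0.08 with the software's ratios. Part of the 157 was fixed in advance. Aquantile does not alter the ratio of a probe, and the value table repeats the software's ratios. For any 1 probe, a single hybridization always lies within the SD of the mean of both. The cause of the 28 shifts was not tested. With 1 replicate, the spread between clones of the same kind was not measured, and for dim members the signal over background limits any statement on their level.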
